A study of Equus caballus with 13 samples.

Results

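The genes described here were the solute carriers listed outside the SLC25 family, whose members sit in the inner membrane of mitochondria. They were taken by name: every row of the authors' RNA kinetics tables whose symbol began with SLC, a number and a letter, leaving out SLC25A. The rule found 165 genes among the 11331 listed in all. Of these, 162 stood in the table of old against young cells, 164 in the table of young male against young female cells, and 161 in both. SLC22A15 was listed for age only, and SLC9A9, SLC41A2 and SLC39A4 for sex only. 3 of the 165 genes carry the name but are not carriers, as their full names say: SLC4A1AP, SLC7A6OS and SLC2A4RG. The other 162 genes fell into 45 families, which were sorted into 15 substrate classes.

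Solute carriers are membrane proteins that move small molecules and ions across the plasma membrane or the membranes of organelles, by facilitated diffusion, exchange or coupling to an ion gradient. Cartilage has no blood vessels, so chondrocytes take up glucose, amino acids, sulfate and phosphate that have diffused through the matrix, and they release the lactate made by glycolysis the same way. Carriers of the Golgi bring in the nucleotide sugars and the activated sulfate from which the glycosaminoglycan chains of proteoglycans are built, and inherited loss of several of them affects the skeleton.

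The cells were wild-type chondrocytes from horse (Equus caballus) cartilage, kept in culture for 2 days and given the uridine analogue 4-thiouridine for 4 h, after which alkylation made the incorporated analogue readable as a base change. The 3 groups were old female (5 samples), young female (5 samples) and young male (3 samples), and all of them received the analogue. Ages in years, the breed and the joint were not stated. The labels gave 12 batches, of which only 1 held samples of more than 1 group, a young female and a young male. Values were given per group and not per sample, so batch and group cannot be told apart.

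The tables gave 1 synthesis rate and 1 half-life per gene and group, so every value below is the authors' estimate for a group. Neither an SD, a p-value nor a depth could be attached to it, and a difference between groups has no replicate check here. Half-lives were read as hours. Synthesis rates are in arbitrary units that may depend on transcript length, so single rates are compared between groups and not between genes. The same limit applies where genes are ranked or summed below by a value derived from these rates. The product of synthesis rate and half-life, divided by ln 2, is called the implied level; it is the RNA level expected at steady state, and on the log2 scale its ratio adds up those of synthesis and half-life. A ratio is said to pass 2-fold when its log2 value is at least 1 in size. All 10 genes of a list of chondrocyte markers were listed, against 0 of 3 for synovial lining, 1 of 6 for leukocytes (CD14) and 1 of 4 for endothelium (VWF). For smooth muscle or pericytes 3 of 4 were listed, for osteoblasts 2 of 4 and for adipocytes 1 of 4. All 5 genes of a list for fibroblastic, dedifferentiated chondrocytes were listed as well. In bulk samples, fewer cells of a type and less RNA per cell cannot be told apart.

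Transcripts of the solute carriers were longer-lived than the typical transcript of these cells. Their median half-life in young female cells was 5.14 h (interquartile range 2.94 to 11.2 h), against 3.64 h for all 11056 genes of the age table and 3.00 h for the SLC25 carriers. 103 of the 162 (63.6%) exceeded the median gene. The same order held in the other groups: 4.43 h against 3.43 h in old female cells and 6.14 h against 4.63 h in young male cells. Most values fell in the range from 1 to 24 h that a labelling time of 4 h was taken to resolve, 147 of 162 in young female and 150 of 162 in old female cells.

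Half-life differed widely between substrates. Among classes with at least 3 genes, the median in young female cells ran from 2.21 h for carriers of metals other than zinc and 2.81 h for the SLC16 monocarboxylate family to 9.56 h for carriers of vitamins, choline and haem. Sulfate and phosphate carriers (3.30 h), the SLC35 and SLC33 carriers (4.08 h) and amino acid carriers (4.88 h) lay between them, as did zinc carriers (6.21 h). The shortest-lived transcripts were SLC20A1, a sodium-coupled phosphate importer (0.963 h), SLC38A2, a neutral amino acid importer (1.07 h), SLC30A1, the zinc exporter of the plasma membrane (1.09 h), SLC2A3, a glucose transporter (1.20 h), and SLC16A5 (1.33 h). Over these 5 genes and all groups, the longest value was 2.10 h, for SLC16A5 in young male cells. At the other end stood SLC44A1 and SLC44A2, which carry choline, at 36.9 and 47.4 h. SLC7A3, SLC47A1 and SLC2A13 were listed at 69.3 h, the ceiling of the column, so their young female half-lives are limits and not measurements.

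**Figure D1:**
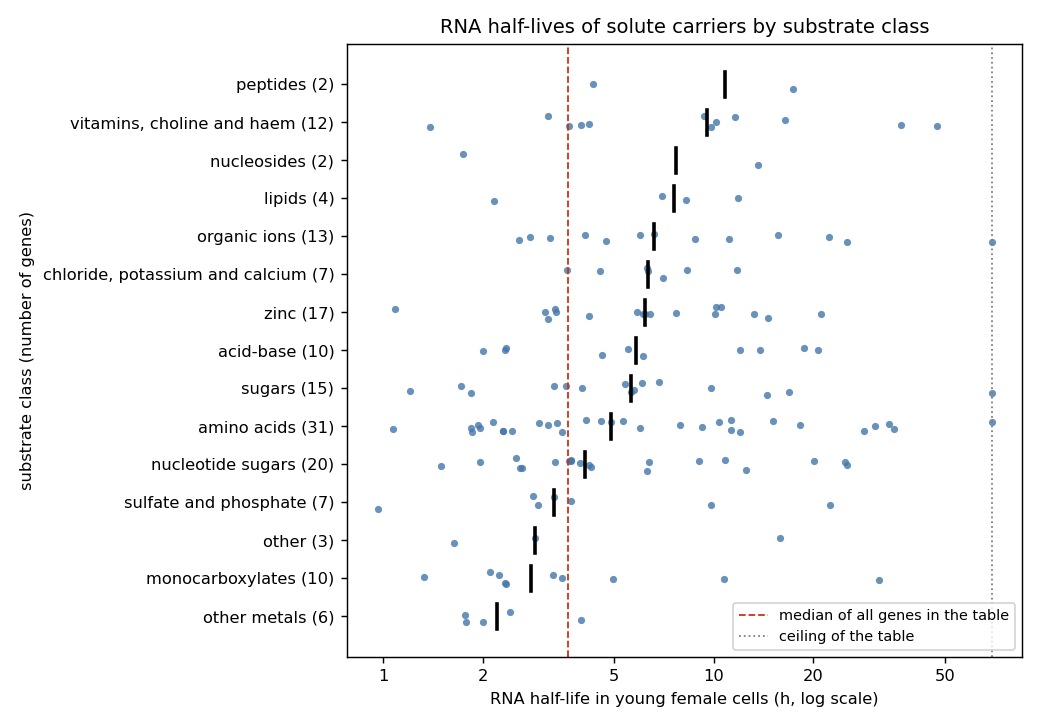
RNA half-life in young female cells of the age table (h, log scale) for each solute carrier, by substrate class, without the 3 genes that are no carriers; points are genes, black bars class medians, the dashed line the median of all genes and the dotted line the ceiling. Among classes of at least 3 genes, medians run from 2.21 h (metals other than zinc) to 9.56 h (vitamins, choline and haem).

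The comparison of old with young female cells asked how age affects RNA synthesis and stability. Among the solute carriers, what stood out was a set of amino acid carriers with higher synthesis in old cells, beside a smaller set with lower synthesis that held amino acid, lactate, chloride, sodium/proton and SLC35 carriers. Synthesis passed 2-fold upward in 17 of 162 members (10.5%), against 4.59% of all genes, and downward in 8 (4.94%), against 2.92%. Half-life passed 2-fold upward in 1 member, against 1.47% of all genes, and downward in 4, against 2.06%. The implied level was at least 2-fold higher in 5, against 2.13%, and at least 2-fold lower in 7, against 1.99%. Among the 116 members in the upper 75% of all genes by implied level, 7 passed upward and 3 downward in synthesis, against 2.46% and 1.68% of all genes held to the same limit.

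Across all members, half-lives were mostly shorter in old cells. The half-life ratio was under 1 in 123 of 162 members, and its median log2 value was −0.19, against −0.08 for all genes. Longer half-lives were found in 24.1% of the members and in 36.5% of all genes. The implied level was higher in old cells in 60 of the 162 (37.0%), against 50.7% of all genes and 14 of 35 SLC25 carriers. Of the 25 members past 2-fold in synthesis, 22 had a half-life ratio of the opposite sign and 8 also passed in implied level. Over all genes these were 719 and 303 of 831, so the carriers lay near the background in both. The log2 level ratio was under 0.5 in size in 4 of the 25 (16%), against 295 of the 831 (35.5%). Synthesis and half-life ratios had opposite signs in 74.1% of the members and in 70.4% of all genes.

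**Figure D2:**
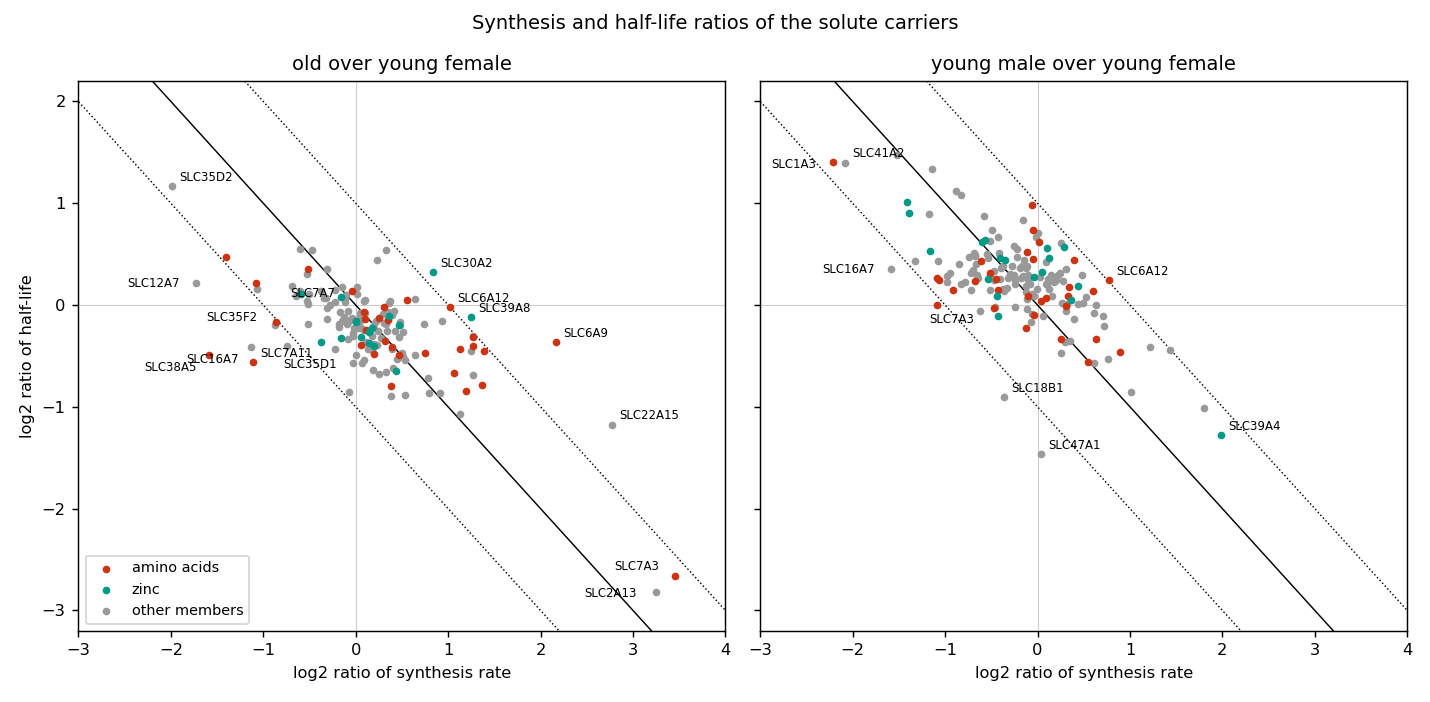
Log2 ratio of half-life against log2 ratio of synthesis rate for each solute carrier, old over young female (left) and young male over young female (right); points are genes, coloured for amino acid and zinc carriers. The solid line marks an unchanged implied level and the dotted lines a 2-fold difference in it; SLC6A9 lies above the upper dotted line on the left, and most members lie between the dotted lines.

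Amino acid carriers made up 10 of the 17 members with synthesis at least 2-fold higher in old cells. That is 10 of the 31 listed (32.3%), against 4.59% of all genes. Their median log2 synthesis ratio was 0.35 and their median half-life ratio −0.37, and synthesis was higher in old cells in 24 of the 31, and above the median ratio of all genes in 23. The implied level was higher in 17 of the 31 (54.8%), against 50.7% of all genes, with a median log2 ratio of 0.10. It was at least 2-fold higher in 2 (6.45%), against 2.13% of all genes, and at least 2-fold lower in 3 (9.68%), against 1.99%. Among the 20 in the upper 75% of genes by implied level, 6 passed upward and 1 downward, against the 2.46% and 1.68% given above. After centring on the median of all genes 8 of the 31 passed upward, against 4.00% of all genes. SLC6A9, a glycine transporter, had the highest ratio of implied level of all 162 members. Its synthesis rate was 184 units in young and 825 units in old female cells, its half-life 4.10 and 3.18 h, and its implied level differed by 1.80 on the log2 scale. Glycine is the most frequent residue of collagen chains. The gene overlaps CCDC24 in the annotation, and how reads of overlapping genes were shared was not stated.

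Carriers of large neutral amino acids followed. SLC3A2 encodes the heavy chain that brings several SLC7 light chains to the cell surface; its synthesis rate was 1908 in young and 4174 in old cells, with half-lives of 2.46 and 1.82 h. SLC7A5, the light chain that exchanges leucine and other large neutral amino acids, was synthesised at 2321 and 4861 units, with half-lives of 1.86 and 1.17 h. Both partners of this heterodimer thus had synthesis ratios just over 2-fold, though that of SLC7A5 was 0.99 on the log2 scale after centring on the median of all genes, and implied levels higher by 0.70 and 0.40 on the log2 scale, short of 2-fold. SLC43A1, a facilitative carrier of similar substrates, had a synthesis rate of 95.7 in young and 249.9 in old cells. Its relative SLC43A2 had 865 and 1078, a log2 ratio of 0.32.

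Carriers of small neutral and acidic amino acids gave a similar picture. SLC1A4, which exchanges alanine, serine and cysteine, was synthesised at 1041 units in young and 2509 in old cells, and its implied level was 5206 and 9483. For SLC1A3, a glutamate transporter, the synthesis rates were 35.1 and 90.5 and the half-lives 5.32 and 3.09 h. SLC1A5, the glutamine exchanger of the same family, had a log2 synthesis ratio of 0.75 and an implied level ratio of 0.28. All 3 listed SLC1 genes therefore had higher synthesis and shorter half-lives in old cells. SLC38A7, a lysosomal carrier of glutamine and asparagine, had synthesis rates of 191 and 437 and half-lives of 1.96 and 1.09 h, which left a log2 level ratio of 0.34.

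SLC6A12 and SLC6A13, sodium-coupled carriers of GABA of which the first also takes up the osmolyte betaine, belonged to the same set. SLC6A12 had synthesis rates of 363 and 739 units and nearly equal half-lives of 7.88 and 7.76 h. It is the exception among the 10 in that the whole difference lay in synthesis; its log2 ratios of 1.02 for synthesis and 1.00 for implied level stood at the threshold, and both lay below it after centring, at 0.94 and 0.996. SLC6A13, which overlaps KDM5A, had 22.5 and 54.3 units and a level ratio of 0.96, or 1.02 with the young female value of the sex table. SLC7A3, a carrier of arginine and lysine, had the largest synthesis ratio, 3.46 on the log2 scale, but it was listed at 1.60 units with a half-life at the ceiling in young cells and at 17.6 units with 10.98 h in old cells. Its implied level, 159.7 and 278, differed by less than 2-fold.

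4 of the 31 amino acid carriers (12.9%) had synthesis at least 2-fold lower in old cells, against 2.92% of all genes. SLC38A5, a sodium-coupled glutamine carrier that exchanges protons, had an implied level of 1353 in young and 321 in old cells, the lowest level ratio of all 162 members (−2.08). SLC7A11, the cystine/glutamate exchanger that supplies cysteine for glutathione, had synthesis rates of 30.9 and 14.3, half-lives of 11.2 and 7.61 h and implied levels of 502 and 157. In these genes synthesis and half-life were both lower, unlike in most members. SLC7A10 and SLC6A17 had synthesis ratios of −1.40 and −1.08 with longer half-lives, and level ratios short of 2-fold. SLC7A7, a light chain that exchanges cationic for neutral amino acids, reached a level ratio of −1.04; it overlaps MMP14 and MRPL52, and the ratio was −0.97 when the sex table supplied the young female value.

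The remaining amino acid carriers differed less with age. SLC38A10, a long-lived transcript of 33.9 and 30.8 h, had a synthesis ratio of 0.10. For the cationic carriers SLC7A1 and SLC7A2, the log2 synthesis ratios were 0.09 and 0.35, and the half-lives in young cells were 1.94 and 2.15 h. SLC38A1 and SLC38A2, sodium-coupled importers of glutamine and alanine, had synthesis ratios of 0.56 and 0.39; the half-life of SLC38A2 was 1.07 h in young and 0.802 h in old cells, and its level ratio −0.02. SLC38A9, the lysosomal arginine sensor of the mTORC1 pathway, gave −0.04 for synthesis and 0.14 for half-life. SLC6A6, the taurine carrier, and SLC7A8, another light chain for neutral amino acids, had level ratios of −0.14 and −0.17. SLC3A1, the heavy chain of the cystine carrier, overlaps PREPL, and its young female half-life was given as 2.30 h in the age table and 4.35 h in the sex table; its differences are therefore not described.

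**Figure D3:**
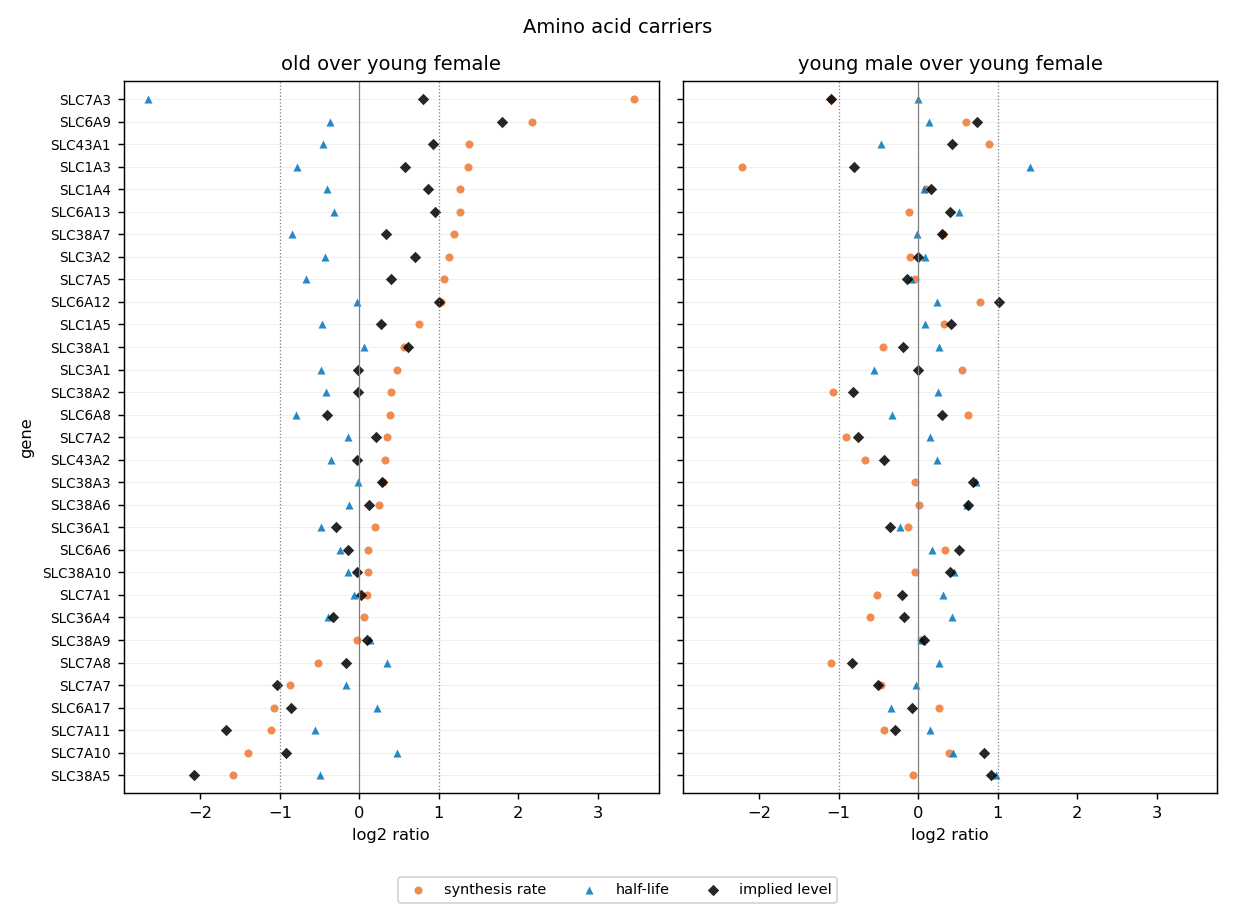
Log2 ratios of synthesis rate, half-life and implied level for the 31 amino acid carriers, old over young female (left) and young male over young female (right), with genes sorted by the age ratio of synthesis; dotted lines mark 2-fold. On the left, 10 genes pass 2-fold upward in synthesis with half-life points on the opposite side of zero; on the right, none passes upward.

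Several of these carriers are known targets of the amino acid response, in which the kinase EIF2AK4 (GCN2) and the factor ATF4 raise the transcription of genes for amino acid supply. A list of 9 genes of this response, none of them a carrier, was read in the same table. Synthesis was at least 2-fold higher in old cells in 6 of the 9, or in 2 of the 5 (ASNS and EIF4EBP1) whose half-lives lay in the range of 1 to 24 h in both groups. The implied level was at least 2-fold higher in 4 of the 9, and neither quantity passed in the other direction; over all genes the shares were 4.59% and 2.13%. ASNS, asparagine synthetase, had synthesis rates of 315 and 1171 units and implied levels of 3175 and 8052, a log2 level ratio of 1.34. EIF4EBP1, a repressor of translation, and SESN2, a sensor of leucine, had level ratios of 1.27 and 0.87. TRIB3 and CHAC1 had level ratios of 1.26 and 1.80, but their half-lives in old cells were listed at 0.0223 and 0.0312 h, far below what the labelling time resolves, so their synthesis ratios are not interpreted. ATF4 itself had a synthesis ratio of 0.42 and a level ratio of 0.37, EIF2AK4 −0.13 and −0.05, and its activator GCN1 0.04 and −0.30. SLC7A11, a known target of the response too, was lower in old cells, as given above. In this comparison the summed implied level of the chondrocyte markers was 1826870 in young and 1656040 in old cells, with 6 of 10 lower, a median log2 ratio of −0.37 and 1 at least 2-fold lower. That of the fibroblastic markers was 156727 and 73614, of which COL3A1 held 133558 and 61607, with 3 of 5 at least 2-fold lower. Over all genes, 1.99% were at least 2-fold lower in implied level. The part of both marker lists in these differences was not tested.

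Of the 17 zinc carriers in the age table, 13 had a lower implied level in old cells, as had 102 of the 162 members and 5454 of all 11056 genes. The median log2 ratio of the zinc carriers was −0.16, against −0.11 for all members and 0.00 for all genes. At least 2-fold higher were 2 of the 17, against 2.13% of all genes. Zinc enters the cytosol through SLC39 proteins and leaves it, for organelles or the outside, through SLC30 proteins. SLC39A8, an importer of zinc and manganese that has been studied in cartilage breakdown, was the only 1 of 17 past 2-fold in synthesis (5.88%). Over all genes, 4.59% passed upward. SLC39A8 was synthesised at 92.95 units in young and 220.2 in old cells. Its half-lives were 10.5 and 9.66 h and its implied levels 1408 and 3069. SLC30A2, an exporter into vesicles, had a synthesis ratio of 0.84 and a longer half-life (6.09 and 7.61 h), and its implied level was 1089.8 and 2428. Its synthesis ratio reached the threshold when the sex table supplied the young female value. These genes were the only zinc carriers at least 2-fold higher in implied level. SLC39A14, an importer of zinc, iron and manganese, was synthesised at 19844 and 27541 units, with a level ratio of 0.28. SLC39A1 and SLC39A7, importers of the plasma membrane and of the endoplasmic reticulum, had ratios of −0.05 and −0.12. SLC39A13, an importer whose loss causes a skeletal form of Ehlers-Danlos syndrome, and SLC39A10 had lower implied levels, at log2 ratios of −0.49 and −0.74.

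Among the carriers of monocarboxylates, SLC16A7 had the clearest difference. It encodes a high-affinity lactate and pyruvate carrier, and its synthesis rate was 347 in young and 158 in old cells, its half-life 3.26 and 2.45 h, and its implied level 1633 and 559.7. SLC16A1, which carries lactate in either direction, had implied levels of 32773 and 20084, a ratio of −0.71. SLC16A3, the lactate exporter of glycolytic cells, had a ratio of −0.18; it overlaps CSNK1D. The chaperone BSG, which brings SLC16A1 and SLC16A3 to the surface, had a level ratio of 0.22. For these 3 carriers and their chaperone, only SLC16A7 passed 2-fold.

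Glucose and polyol carriers showed small differences in most genes. SLC2A1, the basal glucose transporter, had synthesis rates of 8558 and 8097 and half-lives of 1.85 and 1.64 h, and SLC2A3, with a higher affinity for glucose, 4532 and 6446 units with 1.20 and 1.00 h. Their implied levels thus differed by −0.25 and 0.24. SLC2A11 had a synthesis ratio of 1.27 and a level ratio of 0.97, or 1.04 when the sex table supplied the young female value. SLC2A13, a proton-coupled carrier of myo-inositol, had a synthesis ratio of 3.25 beside a half-life at the ceiling in young and 9.84 h in old cells, and its implied level ratio was 0.43. SLC5A3, the sodium-coupled carrier of myo-inositol, had a level ratio of −0.49, and SLC2A10, whose loss causes arterial tortuosity, −0.51. Among the other genes of the family, SLC2A6 and SLC2A8 had level ratios of −0.08 and −0.15.

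The SLC35 and SLC33 genes, among them carriers that supply matrix synthesis in the endoplasmic reticulum and Golgi, tended to lower implied levels in old cells. The class of 20 genes held the 19 listed SLC35 genes, of which some are not known to carry nucleotide sugars, and SLC33A1. Of these, 3 had a higher and 17 a lower implied level in old cells; the class median was −0.28 on the log2 scale and that of all genes 0.00. SLC35D1, which brings UDP-glucuronic acid and UDP-N-acetylgalactosamine, the building blocks of chondroitin chains, into the endoplasmic reticulum, and whose loss causes a lethal skeletal dysplasia, had the lowest ratio of the class. Its synthesis rate was 694 and 415, its half-life 4.24 and 3.20 h, and its implied level 4249 and 1915. SLC35B2 and SLC35B3, which carry the activated sulfate PAPS into the Golgi, had level ratios of −0.46 and −0.18. SLC35A1, SLC35A2 and SLC35A3, carriers of CMP-sialic acid, UDP-galactose and UDP-N-acetylglucosamine, had −0.39, −0.03 and −0.37, and SLC35B4, for UDP-xylose, −0.25. SLC35D2 had synthesis rates of 9.40 and 2.37 units and half-lives of 20.1 and 45.04 h, the 1 member whose half-life was at least 2-fold longer in old cells. The old value lies beyond the resolvable range, and with half-lives kept to 1 to 24 h, 0 members passed upward. SLC35F2, a less studied relative, had a level ratio of −1.06, and SLC35E1 −0.31. SLC10A7, needed for glycosaminoglycan synthesis in the skeleton, had a ratio of −0.25, and SLC33A1, which brings acetyl-CoA into the endoplasmic reticulum, −0.14.

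Sulfate and phosphate carriers of the plasma membrane differed by less. SLC26A2, the sulfate transporter mutated in diastrophic dysplasia, had nearly equal synthesis rates of 738 and 731 and half-lives of 3.30 and 2.83 h, so that its implied level ratio was −0.24. SLC26A11, which overlaps the sulfatase gene SGSH, was the exception, with synthesis rates of 66.8 and 159 and a level ratio of 0.80. For SLC26A6, an exchanger of chloride for oxalate and bicarbonate, the level ratio was −0.22. The phosphate importers SLC20A1 and SLC20A2 gave −0.45 and 0.13. In a list of 6 enzymes of sulfate metabolism, which make activated sulfate (PAPSS1, PAPSS2), break down its by-product (BPNT1, BPNT2) or remove sulfate from heparan chains (SULF1, SULF2), 0 passed 2-fold in synthesis, half-life or implied level in either direction. Between 1.47% and 4.59% of all genes passed per quantity and direction, so 0 of 6 lies near the background.

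**Figure D4:**
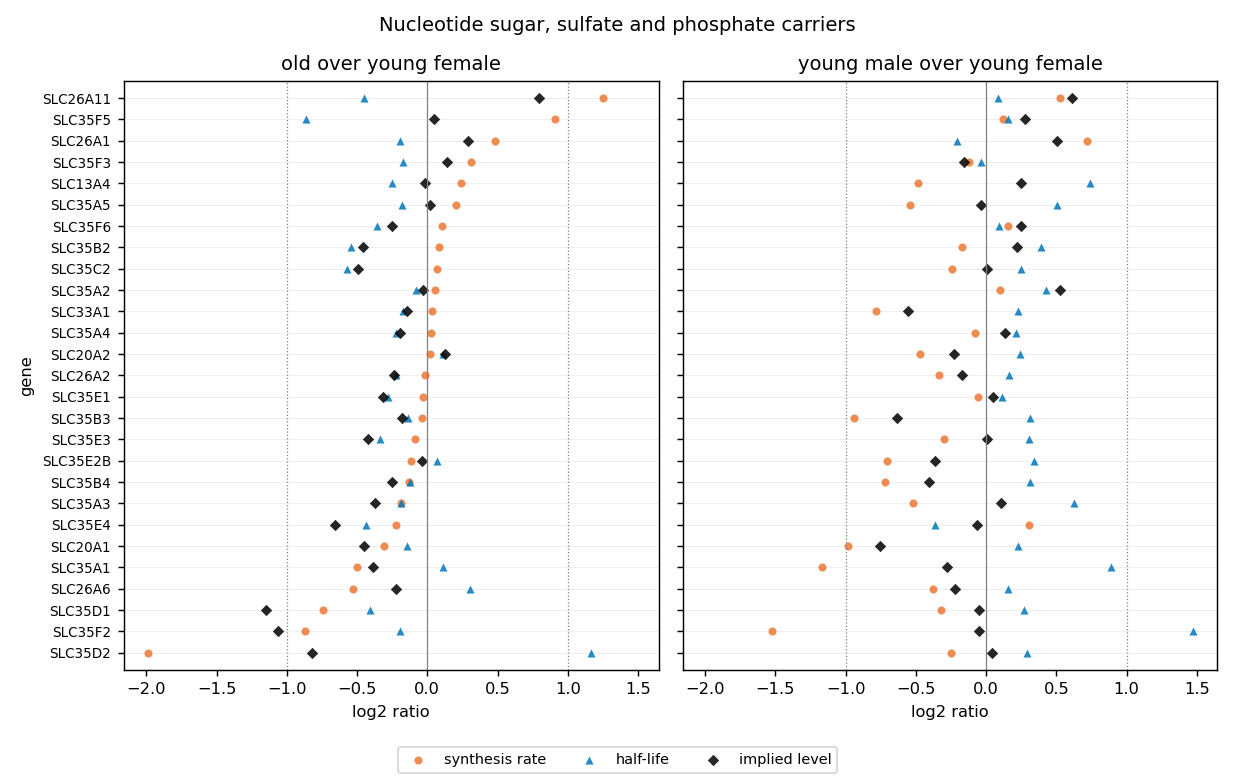
Log2 ratios of synthesis rate, half-life and implied level for the class of 20 SLC35 and SLC33 genes and 7 sulfate and phosphate carriers, old over young female (left) and young male over young female (right), sorted by the age ratio of synthesis; dotted lines mark 2-fold. On the left most implied levels lie below zero, with SLC35D1 at −1.15; on the right most half-lives lie above zero.

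Of the ion carriers, SLC12A7, a potassium-chloride cotransporter used in volume regulation, stood out. Its synthesis rate was 719 in young and 217 in old cells, its half-life 8.28 and 9.60 h, and its implied level 8588 and 2999, a log2 ratio of −1.52. Its relatives SLC12A4 and SLC12A2 had level ratios of −0.28 and −0.05. SLC9A7, a sodium/proton exchanger of the Golgi, had synthesis rates of 38.1 and 18.2 and a level ratio of −0.91. SLC4A2 and SLC4A7, which move bicarbonate, had level ratios of −0.27 and 0.13. In the SLC12 and SLC9 families, 1 member each passed 2-fold downward in synthesis, of 6 and 5 listed by age, against 2.92% of all genes.

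The remaining classes held 3 further synthesis ratios at least 2-fold higher in old cells. SLC40A1 (ferroportin), the only known iron exporter, had a level ratio of 0.70 and SLC11A2, an iron importer, 0.16. SLC31A1, for copper, and SLC41A1, for magnesium, had −0.29 and −0.55. SLC22A23 had synthesis rates of 70.8 and 171 and a level ratio of 0.59. SLC22A15, a zwitterion carrier listed in the age table only, had 2.497 and 17.1 units with half-lives of 25.3 and 11.2 h, and implied levels of 91.1 and 277. SLC2A4RG, a transcription regulator named after a carrier gene, accounted for the third, with half-lives of 12.6 and 6.03 h and nearly equal implied levels (log2 ratio 0.06). SLC23A2, which takes up the ascorbate that collagen hydroxylation needs, had −0.31 for synthesis, 0.36 for half-life and 0.05 for implied level. SLC29A1 (nucleosides), SLC27A1 (fatty acids), SLC22A4 (ergothioneine), SLC44A1 and SLC44A2 (choline) had level ratios from −0.24 to 0.17. The vesicular nucleotide carrier SLC17A9, the peptide carrier SLC15A4 and the less studied SLC66A2 had −0.50, −0.01 and −0.47.

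The comparison of young male with young female cells asked how sex affects the same quantities, and it rests on 3 male samples. Across all genes, male values were shifted: the median log2 synthesis ratio was −0.28 and the median half-life ratio 0.27, while the median implied level ratio was 0.01. Solute carriers moved with that shift, at −0.14, 0.26 and 0.07. Synthesis passed 2-fold upward in 5 of 164 members (3.05%), against 3.78% of all genes, and downward in 14 (8.54%), against 8.37%. Half-life passed 2-fold upward in 7 members (4.27%), against 5.62%, and downward in 3 (1.83%), against 1.96%. The implied level was at least 2-fold higher in 1 (0.610%), against 3.00%, and at least 2-fold lower in 4 (2.44%), against 1.61%. Apart from the few higher levels, these shares lay near those of all genes. Among the 118 members in the upper 75% of genes by implied level, 0 passed upward and 7 downward in synthesis, against 2.11% and 5.13% of all genes held to this limit. Once each ratio was centred on the median of all genes, 8 members passed upward and 7 downward in synthesis, against 5.79% and 4.08% of all genes. In half-life 4 passed upward and 5 downward, against 2.82% and 2.88%.

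The markers differed more in this comparison than in that of age. The summed implied level of the 10 chondrocyte markers was 1744240 in female and 4388460 in male cells, and 6 of the 10 were at least 2-fold higher, against 3.00% of all genes. For the 5 fibroblastic markers the sums were 149615 and 369017, and 4 of the 5 were at least 2-fold higher. The remaining one, PDGFRA, was lower, at a log2 level ratio of −0.71. The male half-lives of COMP, MATN3, CHAD, SNORC and COL1A2 stood at the ceiling, so they are limits and not measurements. Among markers of other cells, 2 osteoblast genes of 4 were listed, with sums of 4043 and 21478, 3 smooth muscle genes of 4, with 806 and 3899 (ACTA2 was higher, MYH11 lower and RGS5 nearly equal, with a median log2 ratio of −0.01), and 1 adipocyte gene of 4, with 593 and 1679. The leukocyte marker CD14 and the endothelial marker VWF were nearly equal, at log2 level ratios of 0.15 and 0.04. The part of these markers in the values of the carriers was not tested. Both comparisons used the same young female samples, so an error in those samples enters both.

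Among the zinc carriers, exporters and importers lay mostly on different sides in implied level. All 7 listed SLC30 exporters had lower synthesis in male cells, with a median log2 ratio of −0.60, and all 7 also lay below the median of all genes. 6 of the 7 had a longer half-life, as did 77.3% of all genes. The implied level was lower in 5 of the 7, with a median of −0.40, and in 5569 of all 11249 genes. Among 11 SLC39 importers, synthesis was higher in 7, with a median of 0.10, against 28.9% of all genes. Their implied level was higher in 10 of 11, with a median of 0.41, against 50.5% of all genes. 10 of 11 also lay above the median of all genes. The exporters' levels were thus mostly lower and the importers' mostly higher in male cells, although none of these 18 genes reached 2-fold in implied level. The split was noticed after the values were seen.

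The individual exporters showed where the differences lay. SLC30A4, an exporter into endosomal vesicles, had synthesis rates of 91.3 in female and 34.4 in male cells, and half-lives of 3.16 and 6.37 h. SLC30A9, which exports zinc from mitochondria, had 345 and 132 units with 6.41 and 12.03 h. SLC30A5, which loads zinc into the secretory pathway, had 365 and 163 units with 3.32 and 4.79 h. These 3 of the 7 passed 2-fold downward in synthesis, against 8.37% of all genes, and their log2 level ratios were −0.40, −0.48 and −0.64. SLC30A5 no longer passed after centring, which left 2 of the 7, against 4.08% of all genes. SLC30A7, another exporter into the Golgi, which overlaps EXTL2, had a level ratio of −0.27. SLC30A1, transcribed in response to zinc through the factor MTF1, had synthesis rates of 2845 and 2114, half-lives of 1.09 and 1.00 h and a level ratio of −0.54. MTF1 had a level ratio of −0.42. The metallothionein genes of the list were not in the tables.

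Among the importers, SLC39A14 had synthesis rates of 18972 and 14897 and half-lives of 10.1 and 13.7 h, with a level ratio of 0.10. SLC39A13, with a half-life of 6.21 h in female and 9.15 h in male cells, had a ratio of 0.66. Ratios of 0.41, 0.63 and 0.05 were found for SLC39A8, SLC39A10 and SLC39A6. SLC39A3, chosen after its values were seen, had the highest, 0.86, and SLC39A9 the only one below zero, −0.36. SLC39A4, listed in the sex table only, passed 2-fold in synthesis (2.98 and 11.8 units) with a half-life of 45.1 h in female cells, beyond the resolvable range. In the age table, 8 of the 10 importers and 5 of the 7 exporters listed had a lower implied level in old than in young female cells. So had 102 of the 162 members and 5454 of all 11056 genes.

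**Figure D5:**
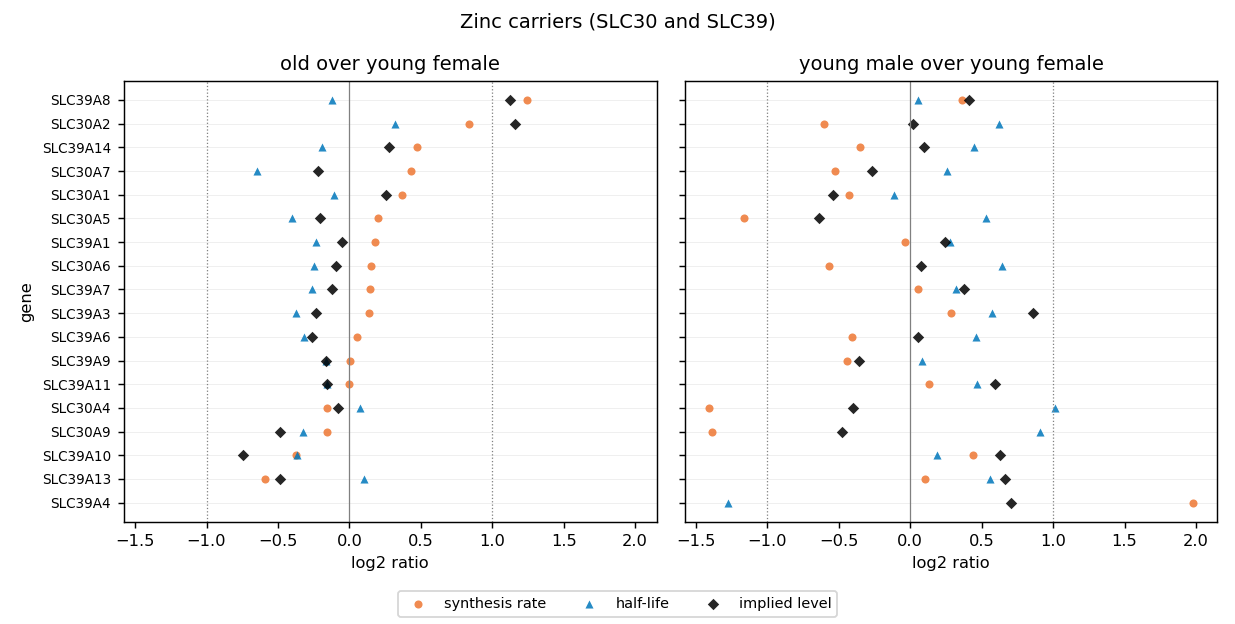
Log2 ratios of synthesis rate, half-life and implied level for the zinc exporters (SLC30) and importers (SLC39), old over young female (left, 17 genes) and young male over young female (right, 18 genes), sorted by the age ratio of synthesis; dotted lines mark 2-fold. On the right, the synthesis points of all 7 SLC30 genes lie below zero, and the implied levels of 10 of 11 SLC39 genes above it.

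Among the 31 amino acid carriers, before any centring, 0 had synthesis at least 2-fold higher in male cells, against 3.78% of all genes. In 4 (12.9%) it was at least 2-fold lower, against 8.37%, 1 of them SLC7A3 at its half-life ceiling in both sexes. SLC1A3 had the lowest ratio, with synthesis rates of 33.6 and 7.25 and half-lives of 5.31 and 14.04 h, and its implied level differed by −0.81. SLC38A2 was synthesised at 6303 and 3009.5 units, with half-lives of 1.07 and 1.27 h and a level ratio of −0.82, and SLC7A8, which overlaps RNF212B, at 22.3 and 10.5 units. After centring on the median of all genes, SLC1A3 still passed and SLC38A2, SLC7A8 and SLC7A3 did not, while SLC43A1 and SLC6A12 passed upward at 1.17 and 1.053. The cationic carrier SLC7A2 had 10089.8 and 5374 units, a level ratio of −0.76. SLC6A12, the betaine carrier, was the only solute carrier at least 2-fold higher in implied level in male cells, at 3949 in female and 7991 in male cells; when the age table supplied the young female value, the log2 ratio was 0.95. Of the 10 genes past 2-fold upward by age, SLC7A3 and SLC1A3 were thus past 2-fold downward by sex, at synthesis ratios of −1.09 and −2.21. The others had male synthesis ratios of 0.60 (SLC6A9), −0.10 (SLC3A2), −0.04 (SLC7A5), 0.09 (SLC1A4), 0.90 (SLC43A1), 0.77 (SLC6A12), −0.11 (SLC6A13) and 0.31 (SLC38A7). Both comparisons share the young female samples.

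SLC16A7 was low in male cells as well, with synthesis rates of 332 in female and 111 in male cells, half-lives of 3.26 and 4.16 h and implied levels of 1558 and 664. Its log2 level ratio was −1.23, beside −1.54 by age, both taken against the same young female samples. The other lactate carriers, SLC16A1 and SLC16A3, had male level ratios of −0.19 and 0.30. SLC16A10, a carrier of aromatic amino acids, had a half-life of 2.56 h in female and 5.56 h in male cells, with lower synthesis (−0.88) and a level ratio of 0.24. Among glucose carriers, SLC2A1 had synthesis rates of 8182 and 6911 with half-lives of 1.84 and 1.82 h, and SLC2A3 a level ratio of −0.15.

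Genes of the SLC35 family lay near the shift of all genes. In the SLC35 family, half-life was longer in male cells in 17 of 19 and synthesis higher in 4, while 10 of the 19 lay above the median synthesis ratio of all genes. SLC35A1 passed 2-fold downward in synthesis, at 191 and 84.8 units, with half-lives of 9.03 and 16.7 h and a level ratio of −0.28; its synthesis ratio was −0.89 after centring. SLC35D1 had a level ratio of −0.05, against −1.15 by age. SLC35B2 and SLC35B3 gave 0.22 and −0.63. SLC26A2 had synthesis rates of 703 and 558 and half-lives of 3.30 and 3.70 h, a level ratio of −0.17. SLC20A1 had 4303 and 2181 units and a level ratio of −0.75.

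The rest of the differences past 2-fold by sex were spread over several classes. SLC19A2, a thiamine importer, had synthesis rates of 399 and 159 and a level ratio of −0.89. SLC41A2, a magnesium carrier listed in the sex table only, had 24.03 and 5.69 units with half-lives of 4.06 and 10.7 h. SLC4A4, a sodium bicarbonate cotransporter, had a synthesis ratio of −1.08 and a level ratio of −0.65. SLC47A1, an exporter of organic cations, was at the half-life ceiling in female and at 25.1 h in male cells, and SLC18B1, a polyamine carrier, had half-lives of 6.67 and 3.57 h; both had implied levels more than 2-fold lower. SLC2A13, SLC12A5 and SLC46A3 had higher synthesis, at log2 ratios of 1.80, 1.44 and 1.01, with shorter half-lives, as did SLC2A4RG at 1.22; for SLC46A3 the ratio was 0.95 when the age table supplied the young female value. For SLC2A13 the half-lives of 54.5 h in female and 27.1 h in male cells both lay beyond the resolvable range. SLC35F2, SLC15A3, a lysosomal peptide carrier, and SLC66A3 had half-lives at least 2-fold longer, at log2 ratios of 1.47, 1.34 and 1.08, with the male value of SLC35F2 at the ceiling. The male half-lives of SLC15A3 and SLC66A3, 38.8 and 35.5 h, also lay beyond the resolvable range. The level ratios of SLC35F2, SLC15A3 and SLC66A3 were −0.05, 0.20 and 0.24, so lower synthesis was listed with the longer half-life in each. SLC40A1 had synthesis rates of 619 and 313 and a level ratio of −0.69, beside 0.70 by age. SLC12A7 had a level ratio of −0.45.

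Genes that work beside the carriers were read from fixed lists as well. By age, 0 genes passed 2-fold in any quantity among 4 listed genes of iron handling, 4 of glucose use, 3 of phosphate handling and 6 of volume regulation. Over all genes, between 1.47% and 4.59% passed by age per quantity and direction, so 0 in lists this short lies near the background. By sex, the iron oxidase CP had a level ratio of 1.09, the phosphate exporter XPR1 a synthesis ratio of −1.59 with a half-life ratio of 1.31, and the kinase OXSR1, which acts on SLC12 carriers, a synthesis ratio of −1.24. TXNIP, which holds back glucose uptake, and DDIT3 and CHAC1 of the amino acid response had male half-lives of 0.0304, 0.0722 and 0.0716 h, so their synthesis ratios are not interpreted; their level ratios were −0.74, 0.04 and 0.61. Among the 6 enzymes of sulfate metabolism, 0 passed 2-fold by sex, where the shares over all genes ran from 1.61% to 8.37%.

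The young female cells appear in both tables, which shows how repeatable the estimates were. Over 161 carriers, the half-life agreed within 5% between the tables in 145 (90.1%) and the synthesis rate in 107 (66.5%). At the median, the synthesis rate of the sex table was 0.956 times that of the age table, and the implied level 0.955 times. For 5 carriers the half-life differed by at least 0.2 on the log2 scale from the general shift, most of all for SLC3A1 at 0.92, and the synthesis rate of that gene differed by as much the other way. The implied level deviated by 0.0093 at most, for SLC2A13, so the product of both quantities repeated more closely than either of them. This repeat holds the same samples in both tables and so says nothing of the spread between horses. In the annotation at hand, 39 of 162 carriers found by symbol overlapped another protein-coding gene. Besides those marked where they are described, they include SLC2A10, SLC4A1AP, SLC5A3, SLC7A6OS, SLC11A2, SLC15A3, SLC18B1, SLC20A1, SLC20A2, SLC31A1, SLC33A1, SLC39A6 and SLC66A2.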

How the data were processed

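Horse chondrocytes labelled with 4-thiouridine for 4 h were sequenced in 13 samples of 3 groups from strand-specific poly(A) libraries, per the labels' protocols. EquCab3.0, cutadapt 4.5 and STAR 2.5.3 are named in the submitters' processing notes. The kinetic model, the gene filter and the way replicates were combined are not given in the sources used here. The authors deposited 2 tables with 1 synthesis rate and 1 half-life per gene and group; per the file headers neither has a unit, and there are 0 columns of values per sample, so depth and replicate error are unknown. Half-lives were read as hours because every column stops at 69.3, which is ln 2 over a rate of 0.01 per h. The group headed Young was read as young female, since the labels of those samples name that table. Labels do not say that samples came from separate animals.

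Computed here, with Python 3.11.15 and pandas 2.3.3, were log2 ratios within a table and the implied level, which assumes constant RNA levels during labelling. No pseudocount, filter or test was used; counts past 2-fold are set beside the percentage over all genes. The scripts were checked on simulated data. Carriers, substrate classes, gene lists and the naming rule were chosen with earlier results of these data known. Named by rule were 93 genes: the largest ratios past 2-fold with half-lives of 1 to 24 h, the extremes of half-life and level, the top level of each class, and 64 listed genes of a list of 69 with roles in cartilage. SLC2A4, SLC2A5, SLC2A12, SLC8A1 and SLC22A5 of that list were not in the tables. SLC4A4, SLC7A10, SLC15A3, SLC22A15, SLC35F2, SLC38A5, SLC38A7, SLC39A3, SLC39A4, SLC39A9 and SLC66A3 were named after their values were seen. Gene overlaps came from a RefSeq table of another assembly, used for names and neighbours only; 162 of 165 symbols matched.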

Additional observations from a re-analysis of the deposited data

How the results depend on the processing

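No paired analysis was possible because each table holds 1 value per group, and no sample could be left out for the same reason. Of 106 values recomputed for the counts and medians, 79 stayed close to the main value and 27 moved, by over 1.5 times for counts or 0.05 for medians. Of the other values recomputed, 528 were labelled as close to the main value and 579 as moved. With a threshold of 0.5, the members past it by age numbered 53 for synthesis, 31 for half-life and 40 for implied level, and by sex 63, 39 and 51, with 6 zinc exporters. Shares over all genes were not computed at this threshold, nor for the half-life and level calls that follow. Those counts therefore have no background to be read against. Keeping half-lives of 1 to 24 h left 1 half-life call by age, and 4 half-life and 3 level calls by sex, with a median sex level ratio of 0.0137. In the upper 75% of genes by implied level, synthesis calls numbered 10 by age and 7 by sex, half-life calls 0 and 2, level calls by sex 2, and amino acid carriers past the threshold by age 7. Leaving out half-lives at the ceiling gave 3 half-life calls by age and 3 level calls by sex. Centring on all genes gave median ratios of 0.0424 (synthesis) and −0.11 (half-life) by age, and of 0.14 and −0.0162 by sex, where both signs turned; by construction this removes the shift of all genes. With the young female values exchanged between the tables, the medians were 0.18 (synthesis) and −0.0530 (level) by age, and −0.25 and 0.01004 by sex. Among the values of named genes, centring took 11 below 2-fold and brought 4 above it, and the exchange 3 and 9. No count or median moved that far when the names that are no carriers were left out. The depth behind these values is unknown.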
